A study of Mus musculus with 16 samples.

Results

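Caveolin- and Ctgf-high cells of mouse colon tumour organoids were described from single-cell RNA sequencing. They were the 4% of kept cells with the highest mean level of 8 genes, Cav1, Cav2, Ccl20, Clca3b, Tm4sf1, Ctgf, Dynap and Gcnt3, and are called members below. The level of a gene in a cell was the natural log of 1 plus its UMIs (unique molecular identifiers, 1 for each captured RNA molecule) per 10000 UMIs of that cell. Both libraries were ranked together, which gave 167 members of 4186 kept cells. Of these, 66 were among 1499 kept knockout cells (4.40%, interval 3.42 to 5.57) and 101 among 2687 kept control cells (3.76%, interval 3.07 to 4.55). The ratio of the shares, knockout over control, was 1.17 (interval 0.846 to 1.61). The lowest member had a score of 0.646, a knockout cell with 5 of the 8 genes detected, and the first cell outside had 0.645, a control cell with 6 detected. Of all kept cells, 73 lay within 0.05 of the lowest member's score, and 35 of them were members, so the members are the upper end of a range.

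The knockout library carried the labels plus TAM and KMT9ko/ko, and the control library minus TAM and KMT9wt/wt. Both came from organoids of colon tumours of the AOM/DSS model (azoxymethane, a carcinogen, and dextran sodium sulfate, which inflames the colon) at passage 14, and the tables are named for day 5. KMT9 is a histone methyltransferase whose catalytic subunit is the product of N6amt1 and whose partner is Trmt112. What TAM stands for is not spelled out, and effects of TAM itself and of the genotype cannot be told apart. The 8 records of each group were read as parts of 1 library, since the design text names only 2 samples, so no test across replicates was made, and every interval is a 95% interval for counting error only. Since the members were chosen on their expression, all values against the other cells are descriptions.

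Caveolin 1 and caveolin 2 are the membrane proteins that build caveolae, small pits of the plasma membrane that flatten under stretch. YAP and TAZ are coactivators that the Hippo kinases hold in the cytoplasm and that act through the TEAD factors, with Ctgf, Cyr61 and Ankrd1 among their best known targets. In injured colon epithelium YAP activity is known for a return to fetal-like gene expression. Of the other score genes, Ccl20 encodes a chemokine that draws Ccr6-bearing immune cells, Tm4sf1 a membrane protein of the L6 family, and Gcnt3 an enzyme that branches mucin O-glycans. Clca3b belongs to the family of secreted CLCA proteins, and Dynap is named for binding dynactin in human cells.

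Promoter sequences are shown for Cav1 and Cav2, which name the cells, for Tm4sf1, the largest term of the score, and for Ccl20, a score gene that was lower in knockout than in control members. They run from 250 bases before to 50 bases after the start of each gene, as RefSeq gives it on GRCm38.p6, and are printed 5′ to 3′ on the strand of the gene. For Cav1 the first of 2 listed windows is shown, while Ctgf, Dynap and Gcnt3 are named only. Capitals mark the TEAD motif CATTCC, the AP-1 motif TGANTCA and the NF-kB consensus, each searched on both strands.
Cav1: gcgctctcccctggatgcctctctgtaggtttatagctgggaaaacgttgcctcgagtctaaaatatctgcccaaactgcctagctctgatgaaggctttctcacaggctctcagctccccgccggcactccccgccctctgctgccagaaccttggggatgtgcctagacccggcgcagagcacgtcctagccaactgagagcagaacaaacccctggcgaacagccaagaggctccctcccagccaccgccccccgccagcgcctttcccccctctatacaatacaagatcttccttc
Cav2: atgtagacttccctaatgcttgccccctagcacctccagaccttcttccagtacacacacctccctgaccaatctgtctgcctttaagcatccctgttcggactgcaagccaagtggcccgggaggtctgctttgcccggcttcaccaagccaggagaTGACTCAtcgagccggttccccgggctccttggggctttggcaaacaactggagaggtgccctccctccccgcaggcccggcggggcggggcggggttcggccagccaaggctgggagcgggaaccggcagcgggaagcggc
Tm4sf1: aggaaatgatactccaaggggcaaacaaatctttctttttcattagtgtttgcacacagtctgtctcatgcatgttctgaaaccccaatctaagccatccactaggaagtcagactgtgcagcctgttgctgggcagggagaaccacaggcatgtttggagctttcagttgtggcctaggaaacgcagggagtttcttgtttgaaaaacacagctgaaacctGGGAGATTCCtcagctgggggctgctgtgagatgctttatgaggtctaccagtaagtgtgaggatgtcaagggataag
Ccl20: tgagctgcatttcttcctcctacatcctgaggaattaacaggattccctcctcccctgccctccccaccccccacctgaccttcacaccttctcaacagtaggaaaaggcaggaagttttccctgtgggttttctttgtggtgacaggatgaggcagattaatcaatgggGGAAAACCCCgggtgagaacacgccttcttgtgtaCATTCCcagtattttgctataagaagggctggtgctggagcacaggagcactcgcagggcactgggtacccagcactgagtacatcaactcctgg
The windows lie at chr6:17306085-17306384 (plus strand), chr6:17280935-17281234 (plus strand), chr3:57301939-57302238 (minus strand) and chr1:83116516-83116815 (plus strand). The Cav1 window held none of the 3 motifs, and the Cav2 window held 1 AP-1 match and neither of the others. The Tm4sf1 window held 1 NF-kB match, and the Ccl20 window 1 TEAD and 1 NF-kB match, with no overlap between motifs. Of 32851 promoter windows of this length, 14.7% held CATTCC, 7.81% TGANTCA and 4.51% the NF-kB consensus. These are matches of letters, not measured binding. Cav1 and Cav2 are neighbours on chromosome 6, at chr6:17306335-17341452 and chr6:17281185-17289115, both on the plus strand, and the annotated gene Gm15581 overlaps both on the opposite strand. The sources used here do not say if strand was used in counting.

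The members were deeper than the other cells, with a median of 31678 UMIs against 24093 in the knockout library and 33935 against 24572 in the control library. Their median number of detected genes was 5143 against 4696 in the knockout library and 5403 against 4862 in the control library. In the cells with at least 20000 UMIs, 51 knockout and 83 control members, none of the 324 named gene results at 1.5-fold or more changed direction. Members stayed deeper there, with a median of 38177 against 28539.5 UMIs in the knockout library and 37802 against 28614.5 in the control library. The matrices shared 498 barcodes. Of the members, 32 of 66 in the knockout library (48.5%) and 18 of 101 in the control library (17.8%) carried such a barcode, against 21.1% of 1433 other knockout cells and 6.19% of 2586 other control cells. In 31 of those 32 knockout members and in 16 of those 18 control members the second copy failed the cell filter. These failed copies held between 2.52% and 3.29% of the UMIs of the knockout members and between 1.28% and 1.57% of those of the control members. One barcode was a member in both libraries, on the control side as the smaller copy. Which copy is the true cell was not tested. Leaving out every shared barcode left 34 knockout and 83 control members. The members taken out were deeper than those left. Their medians were 38284 against 26704.5 UMIs in the knockout library and 50255 against 29999 in the control library. Effects of depth and of sharing a barcode were not told apart. Values without the shared barcodes are given beside many of the results below. Of the 116 named genes that differed by 1.5-fold or more between members and other knockout cells, 114 kept their direction without them, Krt20 and Tpx2 being the exceptions, and 100 kept the size of 1.5-fold. With only the smaller copy of each shared barcode left out, all 116 kept direction and size. So did all 127 in the control library and all 81 between knockout and control members. The targeted gene N6amt1 stood at 2.73 CPM (UMIs per 1000000) in knockout members and 6.26 CPM in the other knockout cells, against 29.9 CPM in control members and 34.5 CPM in the other control cells. Only 6 UMIs of it were counted in the knockout members, and the sources used here do not name the deleted exon.

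The caveolin genes, which chose the cells, stood as follows. Cav1 was at 28.7 CPM in members and 2.46 CPM in other cells of the knockout library, and at 74.9 and 4.43 CPM in members and other cells of the control library. Cav2 was at 252 and 59.4 CPM in knockout members and other cells, and at 269 and 41.8 CPM in control members and other cells. Cav2 was found in nearly every member, with a UMI in 64 of 66 knockout and 96 of 101 control members, while Cav1 was found in 34.8% and 63.4%. Thinned to 5000 UMIs per cell, which left out 4 knockout and 3 control members, Cav1 had a UMI in 12.9% of knockout members against 1.27% of other cells, and in 30.6% of control members against 1.31% of other cells. No cell type that should lack these genes was at hand to measure free RNA. Across all kept cells of a library, the log levels of Cav1 and Cav2 had a Pearson correlation of 0.30 over 1499 knockout cells and 0.52 over 2687 control cells, cells that share a library and whose counts are sparse.

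**Figure D1:**
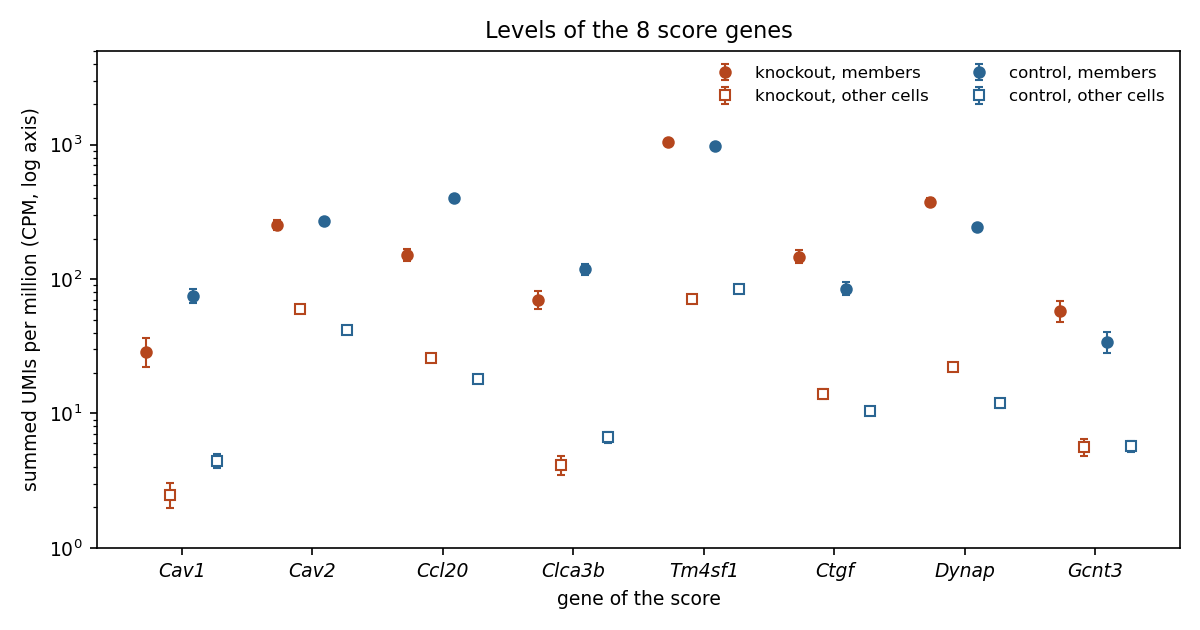
Summed level (CPM, log axis) of the 8 score genes in members (filled circles) and other kept cells (open squares) of the knockout and the control library, with exact 95% Poisson intervals. All 8 genes are higher in the members, by the choice of cells, and Cav1, Ccl20 and Clca3b are lower in knockout than in control members.

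Tm4sf1 carried the score. It stood at 1049.9 CPM in members and 70.9 CPM in other cells of the knockout library, and at 982 and 83.9 CPM in members and other cells of the control library. It was the largest of the 8 terms in 43 of 66 knockout and 68 of 101 control members and made up 34.4% and 32.1% of their summed scores. Ctgf, the YAP target among the 8, stood at 147 and 14.0 CPM in knockout members and other cells and at 84.6 and 10.5 CPM in control members and other cells. It had a UMI in 71.2% of knockout members against 15.7% of other knockout cells, and in 71.3% of control members against 13.1% of other control cells. Thinned to 5000 UMIs, these shares of cells with a Ctgf UMI were 40.3% against 4.47% and 33.7% against 3.64%.

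Among single members Tm4sf1 lay between 1.30 and 48.1 UMIs per 10000 (median 8.89) in the knockout library and between 0.941 and 41.5 (median 8.04) in the control library. Cav2 lay between 0 and 10.3 (median 2.23) in knockout and between 0 and 9.47 (median 2.45) in control members.

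Ccl20 was uneven among the members. It stood at 151 and 25.6 CPM in knockout members and other cells and at 402 and 18.2 CPM in control members and other cells. It had a UMI in 43.9% of knockout and 58.4% of control members, and 1 cell held 24.4% of its UMIs in knockout members and 1 cell 13.9% in control members. Dynap stood at 374 and 22.3 CPM in knockout members and other cells and at 242 and 11.9 CPM in control members and other cells, with 25.2% of its UMIs in 1 knockout member. Clca3b was at 70.2 and 4.13 CPM in knockout members and other cells and at 119 and 6.68 CPM in control members and other cells. Gcnt3 was at 57.9 and 5.61 CPM in knockout members and other cells and at 34.0 and 5.68 CPM in control members and other cells. At least 5 of the 8 genes were detected in 78.8% of knockout and 82.2% of control members, against 4.40% of other knockout and 4.56% of other control cells. Without the shared barcodes Cav1 was at 29.9 CPM in knockout and 67.6 CPM in control members, Ctgf at 173 and 83.3 CPM, Ccl20 at 208 and 443 CPM and Dynap at 207 and 253 CPM. The order of the libraries was turned for Dynap and kept for Cav1, Ctgf and Ccl20. All 8 were detected together in 0 knockout members, which allows a share of up to 4.55%, and in 9 control members.

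Each gene was then left out of the score in turn and read in the cells that the other 7 genes chose. Between 136 and 156 of the 167 cells chosen this way were members. The 8 genes were chosen with earlier results of these data known, so the ratios that follow are descriptions. Cav1 was then 10.1-fold higher in the chosen cells of the knockout library and 11.6-fold higher in those of the control library, and Ctgf 5.76-fold and 5.41-fold higher. Tm4sf1 was 6.31-fold and 9.11-fold higher. The exception was Ccl20, at 46.9 CPM in chosen and 32.1 CPM in other knockout cells, 1.46-fold higher, but at 296 and 24.2 CPM in chosen and other control cells, 12.2-fold higher. The left-out ratios of Cav2, Clca3b, Dynap and Gcnt3 lay between 3.43-fold and 10.8-fold in both libraries. When a random part of the UMIs, each drawn with probability 0.5, chose the cells and the rest was read, the ratios of the 8 genes lay between 4.14-fold and 21.8-fold, and 151 of the 167 cells were members.

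Across all genes, genes were called higher or lower in members at a ratio of 1.5-fold or more with at least 20 CPM in members or other cells. In the knockout library 822 of 5941 measured genes (13.8%) were higher and 774 (13.0%) lower. In the control library 485 of 5855 (8.28%) were higher and 692 (11.8%) lower. Of 5431 genes measured in both libraries, 340 (6.26%) were higher in both, 396 (7.29%) lower in both and 7 (0.129%) went opposite ways. The median log2 ratio of all measured genes was -0.04 in the knockout and -0.02 in the control library. The gene lists named below leave out the 8 score genes, and their counts stand against these shares.

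**Figure D2:**
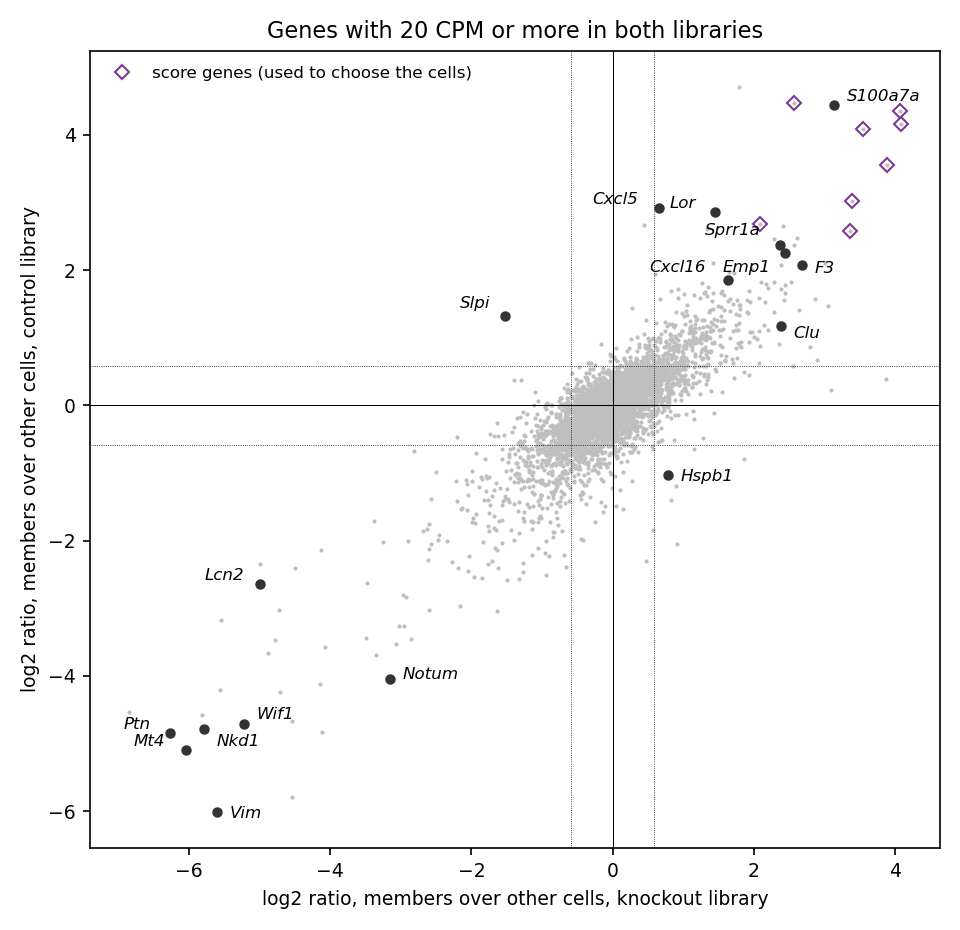
Each point is a gene with 20 CPM or more in both libraries, at its log2 ratio of members over other cells in the knockout (horizontal) and the control library (vertical), with dotted lines at 1.5-fold. Vim, Ptn, Mt4, Nkd1 and Wif1 lie far below 0 in both libraries, the score genes far above by the choice of cells, and Slpi lies below 0 in the knockout and above 0 in the control library.

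The label YAP-active was checked against known YAP and TEAD targets, and some of them went with it. Of the targets besides Ctgf, 8 of 13 measured were higher and 2 lower in knockout members (median log2 ratio 0.83), and 6 of 11 were higher and 2 lower in control members (median 0.72). With shared barcodes left out, 9 of 13 were higher and 1 lower in knockout members and 6 of 11 higher and 2 lower in control members. F3, which encodes tissue factor, the starter of blood clotting, was at 1425 and 223 CPM in knockout members and other cells and at 549 and 130.4 CPM in control members and other cells. Its log2 ratio was 2.68 (interval 2.62 to 2.74) in the knockout and 2.07 (interval 2.00 to 2.14) in the control library. Ankrd1, a nuclear ankyrin repeat protein, was at 137 and 47.8 CPM in knockout members and other cells and at 93.8 and 50.3 CPM in control members and other cells.

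Areg, an EGFR ligand, was at 996 and 335 CPM in knockout members and other cells and at 1653 and 625 CPM in control members and other cells. Edn1, the vasoconstrictor endothelin 1, was 2.19-fold and 2.02-fold higher. Cyr61, the sister gene of Ctgf, did not go with it. It was at 643 and 695 CPM in knockout members and other cells and at 546 and 645 CPM in control members and other cells. Amotl2, an angiomotin that binds YAP, had log2 ratios of -0.04 and 0.12. Rbms3, an RNA-binding protein on the list, was 7.27-fold and 10.9-fold lower.

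The Hippo pathway genes themselves were mixed, with 4 of 18 measured higher and 3 lower in knockout members and 2 of 13 higher and 3 lower in control members. Yap1 was at 30.5 and 43.6 CPM in knockout members and other cells and at 41.0 and 37.8 CPM in control members and other cells, and Wwtr1, which encodes TAZ, had log2 ratios of -0.16 and 0.39. Among the TEAD factors the members held more Tead4, at 27.3 and 9.44 CPM in knockout members and other cells and at 31.5 and 10.0 CPM in control members and other cells. They held less Tead2, at 33.7 and 88.7 CPM in knockout members and other cells and at 18.6 and 74.2 CPM in control members and other cells. Tead1 differed by less than its counting interval, with log2 ratios of -0.13 (interval -0.63 to 0.33) and 0.23 (interval -0.22 to 0.65). Vgll4, which competes with YAP for TEAD, was 2.79-fold and 2.62-fold lower. YAP activity is set by the place of the protein in the cell, which these counts do not measure.

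Genes of the caveolar coat were higher in part. Besides Cav1 and Cav2, 3 of 6 measured caveolar genes were higher in knockout members and 4 of 7 in control members, with 0 lower in either library. Ehd2, an ATPase at the neck of caveolae, was 2.55-fold and 5.50-fold higher, and its relative Ehd1 2.07-fold and 2.80-fold higher. Cavin1, the coat protein that caveolae need, was at 54.2 and 48.3 CPM in knockout members and other cells and at 55.0 and 34.0 CPM in control members and other cells. Cavin3, an adaptor of the coat, was at 75.6 and 12.8 CPM in knockout members and other cells, and had a log2 ratio of 0.59 (interval 0.26 to 0.90) in the control library. Cavin2 had no UMI in the members of either library, which allows up to 1.37 CPM in knockout and 0.808 CPM in control members.

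Genes of the fetal-like and regenerating epithelium were mostly higher. Of this list 14 of 20 measured were higher and 5 lower in knockout members (median log2 ratio 1.09), and 13 of 19 were higher and 2 lower in control members (median 1.16). Without the shared barcodes the counts were 13 higher and 2 lower of 20 in the knockout library and 12 and 2 of 19 in the control library. Ly6a, which encodes the surface protein Sca-1, was at 3769 and 1764 CPM in knockout members and other cells and at 3685 and 1646 CPM in control members and other cells. The membrane-binding annexins Anxa1 and Anxa5 were 2.11-fold and 2.93-fold higher in knockout and 2.11-fold and 3.23-fold higher in control members. Emp1, an epithelial membrane protein, was at 626 and 115 CPM in knockout members and other cells and at 437 and 92.0 CPM in control members and other cells.

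Clu, which encodes clusterin and marks revival stem cells in the mouse intestine, differed in level between the libraries. It was at 1371 and 264 CPM in knockout members and other cells and at 171 and 75.5 CPM in control members and other cells. Sprr1a, a cornified envelope gene of injured gut, was at 979 and 189 CPM in knockout members and other cells and at 57.1 and 11.1 CPM in control members and other cells, 5.18-fold and 5.17-fold higher. Mmp7, a matrix protease that many colon tumours make, went the other way and was 1.93-fold and 5.71-fold lower.

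The 12 genes with the largest ratios in the control library that were also higher in the knockout library were S100a7a, Cxcl5, Lor, Tnip3, Dnah7b, Cwh43, Sprr1a, Emp1, F3, Dusp14, Msn and Cxcl16. S100a7a, a calcium-binding protein of inflamed skin, was at 186 and 21.1 CPM in knockout members and other cells and at 53.6 and 2.47 CPM in control members and other cells. When shared barcodes were left out, it was at 101 CPM in knockout and 27.5 CPM in control members. Lor, the cornified envelope protein loricrin, was at 1247 and 456 CPM in knockout members and other cells and at 1789.6 and 247 CPM in control members and other cells. The squamous and cornified envelope list was mixed in knockout members, with 4 of 11 measured higher and 3 lower (median log2 ratio 0.09). In control members 3 of 6 were higher and 0 lower (median 0.94). Msn, which encodes moesin, a linker of actin to the membrane, was 3.13-fold and 3.91-fold higher, and Dusp14, a phosphatase of MAP kinases, 3.91-fold and 4.06-fold.

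Chemokine genes besides Ccl20 were mixed. Of the list of chemokines and NF-kB targets, 6 of 21 measured were higher and 8 lower in knockout members, and 7 of 17 were higher and 5 lower in control members. Cxcl16, a membrane-bound chemokine, was at 829 and 267 CPM in knockout members and other cells and at 572 and 159 CPM in control members and other cells. Cxcl5, which attracts neutrophils, was at 152 and 96.5 CPM in knockout members and other cells and at 148 and 19.6 CPM in control members and other cells, 1.58-fold and 7.56-fold higher. Its log2 ratio in the knockout library, 0.66, was 0.38 when shared barcodes were left out and -0.13 with the top 8% of cells chosen. Ccl2, which attracts monocytes, was 1.36-fold and 6.37-fold higher. For both chemokines the levels in members of the libraries were close, and the level in the other cells was 96.5 against 19.6 CPM for Cxcl5 and 57.2 against 11.8 CPM for Ccl2. Tnip3, an inhibitor of NF-kB signalling, was 5.32-fold and 6.27-fold higher, while Lcn2, the iron-scavenging lipocalin, was 31.8-fold and 6.23-fold lower.

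Adhesion and growth factor genes were higher by smaller ratios. Of integrins, laminins and adhesion genes, 10 of 20 measured were higher and 1 lower in knockout members and 5 of 16 higher and 1 lower in control members. Lamb3, a chain of the laminin of epithelial basement membranes, was 2.14-fold and 2.36-fold higher, Itga3, a laminin receptor, 1.86-fold and 2.59-fold, and Cd44, the hyaluronan receptor, 1.80-fold and 2.28-fold. Of EGFR ligands and MAPK feedback genes, 8 of 18 were higher and 3 lower in knockout members and 6 of 13 higher and 1 lower in control members. Egfr itself was at 64.7 and 18.7 CPM in knockout members and other cells and at 22.1 and 9.49 CPM in control members and other cells, the ligand Btc was 2.89-fold and 2.51-fold higher, and Dusp6, a phosphatase that damps ERK, 1.95-fold and 2.06-fold. Of actin and SRF targets, 5 of 23 were higher in knockout and 8 of 22 in control members. Among them the actin crosslinker Actn1 was 2.06-fold and 1.85-fold higher and Srf itself 2.38-fold and 1.77-fold lower.

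Of mucin glycosylation genes besides Gcnt3, 8 of 11 were higher and 1 lower in knockout members and 4 of 10 higher and 1 lower in control members. B3gnt3, which extends O-glycans, was 3.75-fold and 2.60-fold higher, and Muc13, a membrane mucin, 4.23-fold and 1.85-fold. Fst, the activin inhibitor follistatin, was 4.87-fold and 5.50-fold higher. Serpinb5, an epithelial serpin, was 2.64-fold and 2.93-fold higher. Of the tetraspanins and the relatives of Tm4sf1, 5 of 14 were higher and 2 lower in knockout members and 2 of 13 higher and 2 lower in control members. The tetraspanins Tspan1 and Tspan8 were 2.71-fold and 2.25-fold higher in knockout and 1.91-fold and 2.13-fold higher in control members, while Tspan3 and Tspan13 were 2.13-fold and 3.55-fold lower and 2.18-fold and 2.63-fold lower.

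Of heat shock genes 5 of 13 were higher and 0 lower in knockout members and 1 of 13 higher and 1 lower in control members. Of interferon response genes 7 of 20 were higher and 3 lower in knockout members, and 2 of 17 were higher and 4 lower without the shared barcodes. In control members 3 of 16 were higher and 0 lower. Isg15, a ubiquitin-like protein that interferon induces, was at 309 and 170.3 CPM in knockout members and other cells and at 334 and 192 CPM in control members and other cells. Of p53 targets 4 of 18 were higher and 0 lower in knockout members and 2 of 19 higher and 2 lower in control members, and once shared barcodes were left out 8 of 19 were higher in knockout members. Cdkn1a, the cell cycle inhibitor p21, had log2 ratios of 0.19 in the knockout and -0.25 in the control library.

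**Figure D3:**
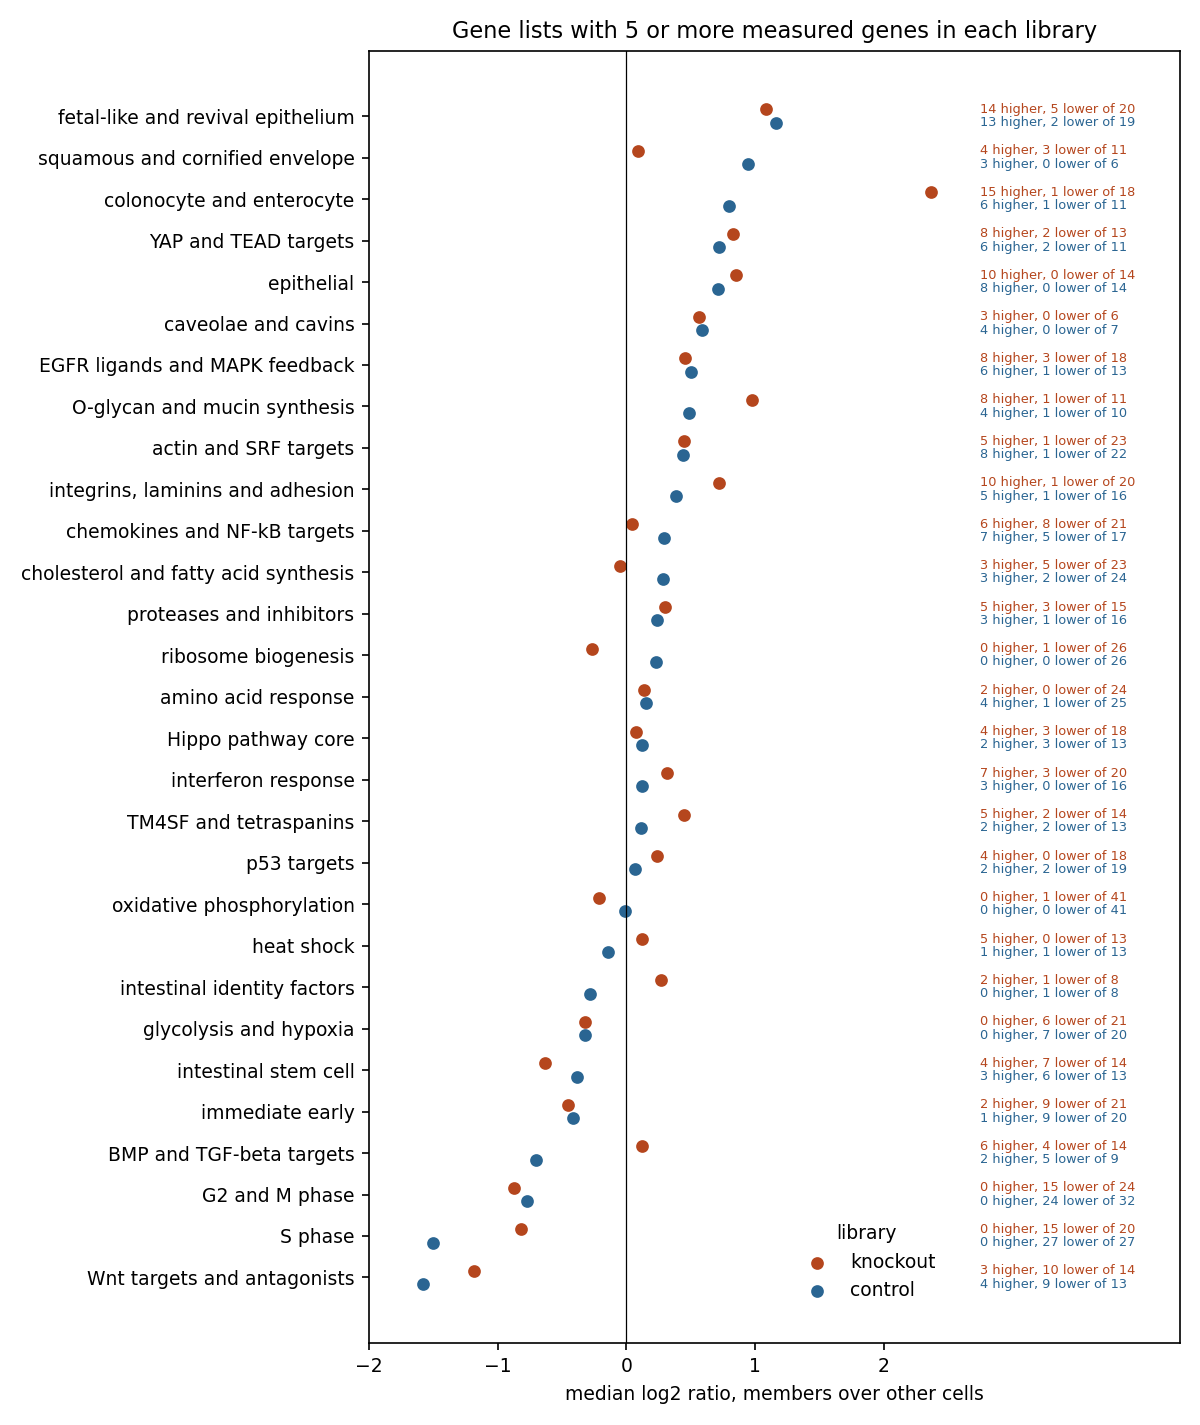
Median log2 ratio of members over other cells for gene lists with 5 or more measured genes, in the knockout (red, upper) and the control library (blue, lower), with the number of genes 1.5-fold or more higher and lower at the right. Fetal-like genes stand above 0 and Wnt and S phase genes below 0 in both libraries, and the colonocyte list stands at 2.36 in the knockout and 0.80 in the control library.

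The members were epithelial. Of 14 measured epithelial genes, 10 were higher in knockout members and 8 in control members, and 0 lower. Krt8 was at 6533 and 3152 CPM in knockout members and other cells and at 6857 and 2709.6 CPM in control members and other cells, and its partner keratin gene Krt18 was 1.83-fold and 1.92-fold higher. Cdh1, which encodes E-cadherin, was at 259.7 and 128 CPM in knockout members and other cells and at 123 and 89.4 CPM in control members and other cells. Epcam had log2 ratios of 0.50 and -0.05. The intestinal identity factor Cdx2 was at 38.7 and 24.3 CPM in knockout members and other cells and at 65.2 and 94.2 CPM in control members and other cells. Markers of cell types in which caveolins are known to be abundant were near 0. The fibroblast and smooth muscle list summed to 0.456 CPM in knockout and 0.539 CPM in control members, with 16 of 17 genes at 0 UMIs in members of each library, and Col1a1 had no UMI in members. The endothelial list summed to 46.9 and 67.6 CPM, against 137 and 115 CPM in other cells. Of these sums Sox17, also known from gut epithelium, made 39.6 CPM in knockout and 52.0 CPM in control members, while Pecam1 was at 0.456 and 0.269 CPM. Of the immune list, 11 of 18 genes in knockout and 13 of 18 in control members had no UMI, Ptprc among them, and Cd14 made 87.0 of 105 CPM in knockout and 79.5 of 97.3 CPM in control members.

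The lowest ratios belonged to genes of several kinds, Wnt feedback genes and genes of secreted and metal-binding proteins among them. The 12 smallest in the control library that were also lower in the knockout library, among genes at 50 CPM or more, were Vim, Mt4, Ptn, Nkd1, Wif1, Mt3, Cited1, Slc30a2, Wnt6, Notum, Ifitm1 and Smoc2. Nkd1, an intracellular inhibitor that Wnt signalling induces, was at 13.7 and 756 CPM in knockout members and other cells and at 22.4 and 617 CPM in control members and other cells, 55.3-fold (log2 -5.79, interval -6.36 to -5.28) and 27.6-fold (log2 -4.79, interval -5.11 to -4.48) lower. Wif1, which binds Wnt proteins outside the cell, was at 13.7 and 509 CPM in knockout members and other cells and at 10.8 and 281 CPM in control members and other cells. Notum, which inactivates Wnt by removing its lipid, was 8.87-fold and 16.6-fold lower, and Znrf3 and Rnf43, which remove Wnt receptors, 7.49-fold and 2.01-fold lower in knockout and 4.01-fold and 2.51-fold lower in control members. The ligand gene Wnt6 was 17.8-fold and 17.3-fold lower.

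On the list of Wnt targets and antagonists, 10 of 14 measured were lower in knockout members (median log2 ratio -1.19) and 9 of 13 in control members (median -1.58). Without the shared barcodes 9 of 14 and 9 of 13 were lower. The higher genes, named after their values were seen, were Myc, Cd44 and Sox9 in both libraries and Ccnd1 in the control library. Myc was at 195 and 125 CPM in knockout members and other cells and at 203 and 102 CPM in control members and other cells. Sox9, a transcription factor of crypt cells, was at 119 and 66.4 CPM in knockout members and other cells and at 151 and 76.2 CPM in control members and other cells. The stem cell marker Lgr5 was at 0.456 and 2.37 CPM in knockout members and other cells and at 1.35 and 5.06 CPM in control members and other cells, on 1 and 5 UMIs in members. Of the intestinal stem cell list 4 of 14 were higher and 7 lower in knockout members and 3 of 13 higher and 6 lower in control members. Ascl2, a stem cell transcription factor, was 2.40-fold and 2.98-fold lower.

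Vim, the mesenchymal intermediate filament vimentin, was at 7.29 and 356 CPM in knockout members and other cells and at 2.69 and 173 CPM in control members and other cells. It was 48.8-fold (log2 interval -6.42 to -4.91) and 64.2-fold (log2 interval -7.07 to -5.13) lower. Other mesenchymal genes did not share this. Of the epithelial to mesenchymal transition list 3 of 5 measured were higher and 1 lower in knockout members. In control members 2 of 4 were higher and 1 lower. The metallothioneins Mt3 and Mt4 were 56.5-fold and 66.0-fold lower in knockout and 23.8-fold and 34.1-fold lower in control members. Ptn, the growth factor pleiotrophin, was 77.5-fold and 28.7-fold lower, and Ifitm1, an interferon-induced membrane protein, 29.5-fold and 12.6-fold. Prox1, a transcription factor of colon tumours with high Wnt signalling, was 46.7-fold lower in knockout members, on 2 UMIs (log2 interval -8.59 to -3.69), and 9.01-fold lower in control members.

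Levels of several of these genes were graded along the score. In bands of pooled cells ordered by score, from the lowest 50% over the bands from 50 to 20%, 20 to 8% and the next 4% to the members, Nkd1 stood at 1089.8, 648, 100.4, 20.2 and 13.7 CPM in the knockout library. In the control library the same Nkd1 series was 994, 433, 107, 70.6 and 22.4 CPM. Nkd1 was thus already low in cells of the 20 to 8% band, and in knockout cells just outside the members it was near their level. F3 was at 58.9, 159, 567, 1033 and 1425 CPM along the knockout bands and at 75.1, 109, 264, 362 and 549 CPM along the control bands, higher in each band than in the one before. Ly6a in the next 4% was at 3582 CPM in knockout and 3497 CPM in control cells, close to the members. Ankrd1 was at 68.8 and 55.3 CPM in the next 4%, well under the members, and Ccl20 at 61.0 and 92.1 CPM.

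**Figure D4:**
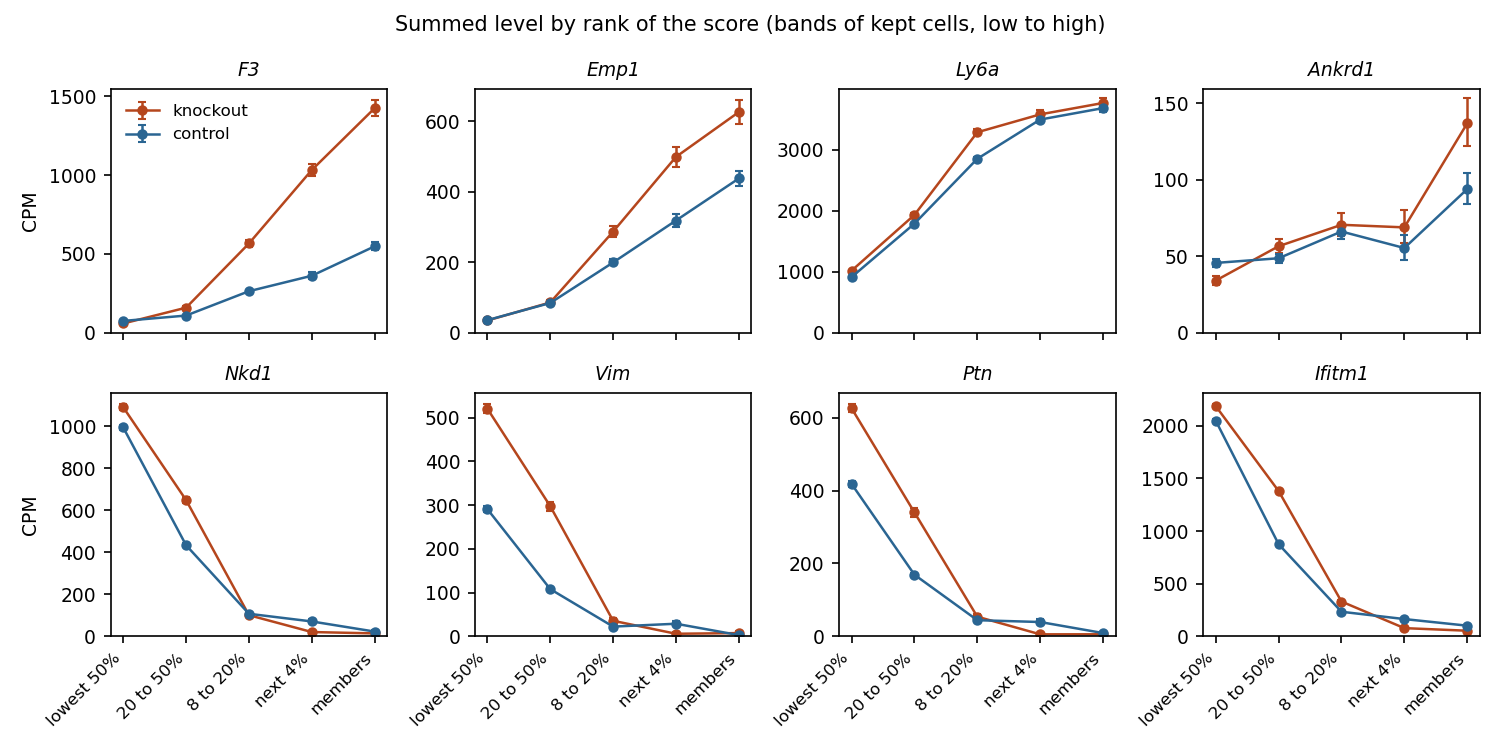
Summed level (CPM, linear axis from 0) of 8 genes in bands of kept cells by rank of the score, low to high, with members last, in the knockout (red) and the control library (blue) and with exact 95% Poisson intervals. F3 and Emp1 climb through every band, Ankrd1 steps up at the members, and Nkd1, Vim, Ptn and Ifitm1 are already low in the 8 to 20% band.

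Cell cycle genes were lower. Of S phase genes 15 of 20 measured were lower in knockout members and 27 of 27 in control members, with median log2 ratios of -0.82 and -1.51. Chaf1b, a histone chaperone of replication, was 4.96-fold and 5.66-fold lower, and Gins2, part of the replicative helicase, 1.62-fold and 4.65-fold. Of G2 and M phase genes 15 of 24 were lower in knockout and 24 of 32 in control members. Mki67, a marker of cycling cells, was at 4.56 and 15.2 CPM in knockout members and other cells and at 6.74 and 23.7 CPM in control members and other cells. In the knockout library, where members with shared barcodes were deeper than the rest, the mitotic part was absent without the shared barcodes. Without them 1 of 24 G2 and M phase genes was lower and 3 higher (median 0.01), and 9 of 18 S phase genes were lower. Without them in the control library 25 of 31 G2 and M phase genes and 27 of 27 S phase genes were lower. Mki67 was then at 9.97 CPM in knockout members and 13.2 CPM in other knockout cells.

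Immediate early genes, which follow stress and growth signals within minutes, were lower for 9 of 21 in knockout and 9 of 20 in control members. Nr4a1, an orphan nuclear receptor, was 4.12-fold and 5.44-fold lower and Atf3, a stress transcription factor, 1.75-fold and 2.98-fold. Of glycolysis and hypoxia genes 6 of 21 and 7 of 20 were lower and 0 higher. Slc16a3, the lactate exporter, was 3.13-fold and 8.18-fold lower and Bnip3, a mitophagy receptor, had log2 ratios of -1.50 and -2.58. Id3, a BMP target, was at 328 and 639 CPM in knockout members and other cells and at 142 and 646 CPM in control members and other cells. The list of BMP and TGF-beta targets was mixed, with 6 of 14 higher and 4 lower in knockout members. In control members 2 of 9 were higher and 5 lower. Oxidative phosphorylation was flat, with 1 of 41 genes lower in knockout and 0 of 41 in control members and 0 higher.

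Each of the other marker sets held 167 kept cells, and 1 of them held the most members. The top 4% of kept cells by Clca4a, Muc3 and Car1, genes of surface colonocytes, held 20 of 66 knockout members (30.3%) and 10 of 101 control members (9.90%). These were 24.7% of that set's 81 knockout cells and 11.6% of its 86 control cells. Of the 34 knockout and 83 control members with a barcode in 1 matrix only, 30 and 75 lay outside this set. The same share of cells chosen by 7 mitotic genes held 0 knockout and 3 control members, and those chosen by 7 S phase genes held 0 of 167 members, which allows up to 1.80%. The cells chosen by Rbp4, Cited1, Slc16a3 and Bnip3 and those chosen by hedgehog ligands and Reg4 held 0 members each. Of the cells chosen by Ccl5, Il1a and Smpx, 8 of 124 knockout cells (6.45%) and 1 of 43 control cells (2.33%) were members. Of those chosen by Kcne3, Slamf9 and Krt4, 0 of 2 knockout cells and 8 of 165 control cells (4.85%) were members. Among all kept cells the share of members was 4.40% in the knockout and 3.76% in the control library.

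The colonocyte genes were therefore read separately. Of the colonocyte and enterocyte list 15 of 18 measured were higher in knockout members (median log2 ratio 2.36) and 6 of 11 in control members (median 0.80). With the Clca4a, Muc3 and Car1 set left out, 5 of 9 and 4 of 9 were higher, and with the shared barcodes left out, 9 of 11 and 7 of 12. Muc3, a membrane mucin of the brush border, was at 477 CPM in knockout members inside the set and 1.41 CPM in those outside, and at 25.9 and 2.11 CPM in control members inside and outside, by the choice of the set. Ceacam1, a cell adhesion molecule of the colonocyte surface, was at 453 and 93.0 CPM in knockout members and other cells and at 352 and 135 CPM in control members and other cells.

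Genes that chose neither set also differed between members inside and outside the set. Krt20, a keratin of differentiated colonocytes, was at 239 CPM in knockout members inside the set and 4.95 CPM outside, and at 38.9 and 4.81 CPM in control members inside and outside. Tm4sf4, a relative of Tm4sf1, was at 549 and 5.65 CPM in knockout members inside and outside the set and at 69.9 and 3.91 CPM in control members inside and outside. In both libraries these genes were high inside the set. In the knockout library most members inside the set carried a shared barcode. The reverse held for Ankrd1, at 14.1 and 204 CPM in knockout members inside and outside the set. In the 10 control members inside the set it had no UMI, which allows up to 7.77 CPM, against 105 CPM outside. Msn was at 34.6 and 197 CPM in knockout members inside and outside and at 38.9 and 110.4 CPM in control members inside and outside. Clu was at 405 and 1904 CPM in knockout members inside and outside and at 36.3 and 186 CPM in control members inside and outside. Emp1 stood at 813 and 522 CPM in knockout members and 412 and 440.3 CPM in control members inside and outside, all above the 115 and 92.0 CPM of the other knockout and control cells.

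**Figure D5:**
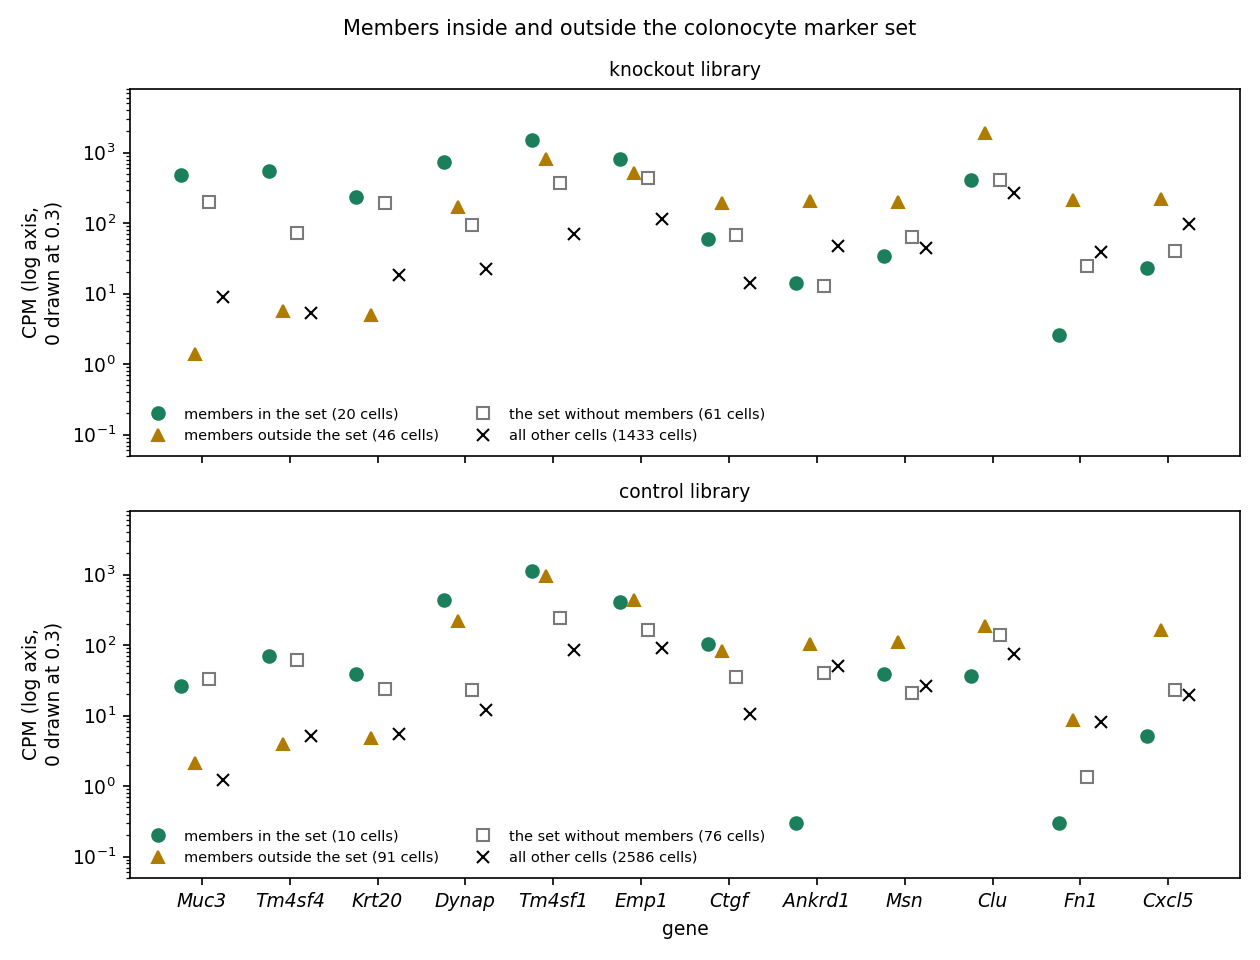
Summed level (CPM, log axis, 0 drawn at 0.3) of 12 genes in members inside the top 4% by Clca4a, Muc3 and Car1, members outside it, that set without members, and all other cells, for the knockout (upper) and the control library (lower). Muc3, Tm4sf4 and Krt20 are high in members inside the set, Ankrd1, Msn, Clu and Cxcl5 in members outside it, as is Fn1 in the knockout library, and Tm4sf1 and Emp1 in both.

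Knockout members were compared with control members. Of 5861 measured genes 877 (15.0%) were 1.5-fold or more higher and 1113 (19.0%) lower in knockout members, against 379 (6.43%) higher and 596 (10.1%) lower of 5892 between the other cells of the libraries. Fewer cells stand behind the members' sums, and the difference of these shares was not tested. The median log2 ratio of all measured genes was -0.08 in both comparisons. With shared barcodes left out, 769 of 5775 genes were higher and 1069 lower in knockout members. The targeted N6amt1 had a log2 ratio of -3.45 (interval -4.93 to -2.28) between members and -2.47 between other cells, and its partner Trmt112 stood at 140.4 CPM in knockout and 223 CPM in control members.

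The 6 largest ratios belonged to Lce1h, Clca4a, Muc3, Sprr2b, Tm4sf4 and Fn1. Fn1, the matrix protein fibronectin, was at 139.9 CPM in knockout and 7.82 CPM in control members, against 39.5 CPM in other knockout and 8.11 CPM in other control cells. It was at 199 CPM in knockout and 7.87 CPM in control members without the shared barcodes. Lce1h and Sprr2b, cornified envelope genes, were at 134 and 129 CPM in knockout and 1.89 and 6.74 CPM in control members. Of the squamous and cornified envelope list 6 of 10 were higher and 2 lower in knockout than control members. Between the other cells of the libraries 7 of 9 were higher and 1 lower. Tm4sf4 was at 199 CPM in knockout and 10.8 CPM in control members, but at 3.32 and 6.08 CPM without the shared barcodes, where its direction turned. Muc3 was at 170.4 and 4.58 CPM in knockout and control members, at 19.9 and 2.50 CPM without the shared barcodes, and at 1.41 and 2.11 CPM without the colonocyte set. Clca4a was at 129.9 and 1.89 CPM in knockout and control members and at 31.0 and 1.43 CPM without the shared barcodes. Outside the colonocyte set it had 0 UMIs in 46 knockout members and 4 UMIs in 91 control members.

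Among the smallest ratios were those of Avil, Atf5, Slamf9, Chchd10 and Coa7. Atf5, a transcription factor of the amino acid and mitochondrial stress response, was at 31.0 CPM in knockout and 174 CPM in control members, against 46.3 CPM in other knockout and 157 CPM in other control cells. The mitochondrial genes Chchd10 and Coa7 were at 144 and 21.9 CPM in knockout and 734 and 104 CPM in control members, and at 156 and 27.3 CPM in other knockout and 627 and 71.8 CPM in other control cells, the same direction. Avil, an actin-binding protein of tuft cells, was at 4.56 CPM in knockout and 63.6 CPM in control members. Avil, Atf5 and Chchd10 are among the genes that another annotated gene overlaps on the opposite strand.

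By list, 19 of 26 ribosome biogenesis genes were lower in knockout than control members and 0 higher (median log2 ratio -0.94), against 7 of 26 lower between the other cells (median -0.41). Without the shared barcodes 13 of 27 were lower and 0 higher. G2 and M phase genes changed direction with these cells, with 14 of 21 lower with them and 10 of 23 higher without them. Srm, which makes spermidine, was at 65.6 CPM in knockout and 224 CPM in control members and Rrs1, a ribosome assembly factor, at 82.5 and 255 CPM. Of amino acid response genes 15 of 25 were lower and 1 higher in knockout members, with 12 of 25 lower between the other cells, and 10 of 25 were lower in knockout members when shared barcodes were left out. BMP and TGF-beta targets were higher for 10 of 12 and lower for 0 in knockout members (median 1.08), against 4 of 11 higher between the other cells (median 0.41). Once shared barcodes were left out, 8 of 11 were higher. Id3, a BMP target, was at 328 CPM in knockout and 142 CPM in control members, while the other cells held 639 and 646 CPM.

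Of YAP and TEAD targets 6 of 12 were higher and 1 lower in knockout than control members (median 0.63), against 4 of 11 higher and 2 lower between the other cells (median -0.02). Without the shared barcodes the members' counts were 8 and 1 of 12. Areg, the 1 lower gene among all members, was the highest gene of the list in control members, at 1653 CPM. Ctgf, a score gene, had log2 ratios of 0.80 (interval 0.57 to 1.03) between members and 0.43 between other cells, and F3 1.38 and 0.77. Cav1 and Ccl20, also score genes, were lower in knockout members, with log2 ratios of -1.38 and -1.41 between members and -0.85 and 0.50 between other cells. Clca3b, another score gene, had a log2 ratio of -0.76 (interval -1.03 to -0.49) between members and -0.58, just short of 1.5-fold, without the shared barcodes. Gcnt3, also in the score, was at 0.77 between members and at 0.05 with those barcodes left out. Dynap had a log2 ratio of 0.63 between members, but -0.29 without the shared barcodes. The integrin, laminin and adhesion list was higher for 11 of 20 in knockout members and for 8 of 18 between the other cells.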

How the data were processed

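Single-cell RNA sequencing (10x Genomics, 3′ chemistry version 2, counted as UMIs) was available for 1 knockout and 1 control library, each deposited as 8 records. The authors deposited 1 matrix of whole-number UMI counts per library, which per the file headers come from Cell Ranger 3.1.0, mapped to mm10 per the submitters' processing notes. The annotation release and the use of strand are not given in the sources used here. Groups were taken from the labels.

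The cell filter asked for 1000 or more genes, 2000 or more UMIs and no more than 20% of UMIs from mitochondrial genes, and kept 4186 of 5696 barcodes. Members were the top 4% by the mean log level of the 8 genes. Counts were summed over cells and given as CPM, UMIs per 1000000 of the summed cells. Ratios are of CPM with no pseudocount. A gene was measured at 20 CPM or more in at least 1 of the compared groups and called at 1.5-fold. Intervals are exact Poisson for levels, exact conditional binomial for ratios and Clopper-Pearson for shares, at 95%, and cover counting error only. A count of 0 was taken to allow 3 counts. With 1 library per group no test across samples was made. Members, gene lists (39) and the rule for named genes were chosen with earlier results of these data known. Named were the score genes, the KMT9 subunits, the 12 genes with the largest and the 12 with the smallest ratios in the control library with the same direction in the knockout library (50 CPM or more), the 6 largest and 6 smallest ratios between knockout and control members, up to 4 genes per list and a fixed set of markers. One gene that this rule names is not reported here. Genes were placed with GENCODE M21, in which 31011 of 31053 identifiers were found.

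Scrublet, as run in scanpy 1.11.5, called 4 knockout and 1 control cell doublets, which is too few to have worked, so doublets were kept. Removing the cells with its highest scores instead, 18 knockout and 58 control cells, took out 0 knockout and 1 control member. The alternatives were no cell filter, a stricter one (2000 genes, 10% mitochondrial UMIs), high doublet scores removed, barcodes in both matrices left out, the top 2% or 8% of cells, the top 4% of each library, thinning to 5000 UMIs, score genes scaled to unit SD, minimums of 10, 50 or no CPM, a fold of 2, edgeR 4.0.16 TMM factors, and means over cells. Cells under 20000 UMIs, smaller copies of shared barcodes, and the Clca4a, Muc3 and Car1 set were left out as alternatives chosen after seeing the data. The ratio calculation was tested on simulated counts. Python 3.11.15, numpy 2.4.6, pandas 2.3.3, scipy 1.17.1, matplotlib 3.10.9 and R 4.3.3 were used.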

Additional observations from a re-analysis of the deposited data

Results flagged for a closer look

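Of 5431 genes measured in both libraries, 7 differed between members and other cells by 1.5-fold or more in opposite directions in the libraries. The difference between the libraries was not tested, since each group is 1 library. Slpi, a secreted protease inhibitor, had log2 ratios of -1.52 in the knockout and 1.32 in the control library, and Hspb1, a small heat shock protein, 0.78 and -1.03. The knockout value of Hspb1 turned to -0.75 with the top 2% and to -0.073 with the top 8% of cells chosen, to -0.89 with cells thinned before scoring and to -1.33 with scaled score genes. Ush1c, a brush border scaffold gene, was at 1.15 in the knockout and -0.64 in the control library, Cldn23, a claudin, at 0.90 and -1.19, and Lgals2, a galectin, at 0.82 and -1.40. Acta1, an actin gene, was at 0.91 in the knockout and -2.05 in the control library, and Pgf, a growth factor of the VEGF family, at 1.86 and -0.79. Slpi stood at 15.9 and 45.7 CPM in knockout members and other cells and at 47.7 and 19.1 CPM in control members and other cells. Pgf stood at 116 and 32.0 CPM in knockout members and other cells and at 12.7 and 22.0 CPM in control members and other cells. Apart from Slpi and Hspb1, these genes were chosen after their values were seen.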

How the results depend on the processing

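The ratio of the members' shares, knockout over control, lay between 0.882 and 1.31 under the alternatives run, inside its interval. No paired analysis was possible because each group is 1 library. Counts of genes moved most with their own thresholds. At a minimum of 10 CPM, 1226 genes in the knockout and 1137 in the control library were lower in members, and 1333 were higher in knockout than control members. At 50 CPM, 474 genes were higher and 317 lower in knockout members, 298 and 285 in control members, and 419 higher and 645 lower in knockout than control members. With no minimum these counts were 6739 and 2767, 6404 and 3011, and 3980 and 2881. At a fold of 2 they were 402 and 333, 184 and 312, and 398 and 336. Of 324 named gene results, 310 kept their direction under all 14 alternatives that recompute them, and of 29 list medians 26 did. With barcodes in both matrices left out, the log2 ratios of Krt20 (-0.24), Tpx2 (0.0276) and the G2 and M phase median (0.00765) in the knockout library reversed, as did those of knockout over control members for Dynap (-0.29), Tnip3 (-0.0298), Tm4sf4 (-0.87), Ckap2 (0.50), the G2 and M phase median (0.45) and the colonocyte and enterocyte median (-0.48). With the Clca4a, Muc3 and Car1 set left out, Krt20 (-1.17) in the knockout library and Dynap (-0.38), Muc3 (-0.57) and the colonocyte and enterocyte median (-0.0834) between members reversed. Hspb1 in the knockout library reversed with the top 2% (-0.75) or 8% (-0.0728) of cells, thinning (-0.89) and scaled score genes (-1.33). Hspa1a (-0.0680) and Dnajb1 (-0.12) there and Top2a (0.17) between members reversed with the top 2%, Cxcl5 in the knockout library (-0.13) and Ifit1 between members (-0.13) with the top 8%, and Nkd1 between members (0.25) with thinning. The cause was not tested. Members chosen after thinning shared 123 of 157 cells with the 167. Depth limits genes with few UMIs, such as Lgr5 in members of both libraries. Cav1 had 63 UMIs in knockout and 278 in control members, and the targeted N6amt1 had 6 and 111.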
